A study of Homo sapiens with 4 samples.

Results

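The 7 genes described here drive or brake cell division or decide cell survival: CCND1, CCND3, CDKN2B, CDT1 and MYCL1 act in proliferation, and BBC3 and BCL2 regulate apoptosis. They were taken by symbol from the 2 deposited tables of genes that differed at least 2-fold after knockdown of ADAR, the enzyme that deaminates adenosines to inosines in RNA duplexes. The tables together held 2257 distinct genes. Of the 7, 5 were listed in the HepG2 table of 1409 genes (CCND3, CDKN2B, CDT1, BBC3 and BCL2), 2 were listed in the K562 table of 942 (CCND1 and MYCL1), and 0 were in both. The genes were chosen with these averages known, so their folds are a description. A gene absent from a table is unlisted there, which does not show that it was unaltered.

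There were 4 groups of 1 sample each: HepG2 liver carcinoma cells carrying a plasmid with an siRNA against ADAR1, HepG2 cells carrying the scrambled siRNA, and K562 erythroleukemia cells with either plasmid. All 4 groups were stably transfected, and the siRNA had been picked from several for the strongest ADAR reduction; whether each line was 1 clone is not given in the sources used here. RNA was read as paired ends of 76 bases in 2 technical replicates per sample, and the tables give the authors' average per gene, whose unit is not stated. Folds below are the ratio of the averages after adding 1 to each. With 1 sample per group no difference has a replicate check, no error or p-value can be attached, and the library depth is unknown. ADAR itself stood at 28.1% of its control average in the HepG2 knockdown and at 47.6% in the K562 knockdown. Of 18 liver markers only APOE was in the HepG2 table, and none of 15 erythroid markers was in the K562 table; tables that hold only genes past 2-fold give no level for the other markers. APOE averaged 8.25 in the HepG2 control and 21.5 in the knockdown. Of 9 fibroblast markers the HepG2 table listed 3, which moved with the knockdown in both directions: LUM averaged 528 in the control and 1445 in the knockdown, DCN 261 and 774, and COL3A1 323 and 34.5. Of the erythroid markers it listed HBA2, at 47 and 125, and HBZ, at 16.6 and 34.9. The name of the line is taken from the labels and is not borne out by these listed markers, which include genes of other cell types. The part of these marker genes in the results was not tested.

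D-type cyclins bind the kinases CDK4 and CDK6, which phosphorylate the retinoblastoma protein and so release E2F transcription factors at the start of the cell cycle. CDKN2B blocks these kinases, CDT1 loads the replicative helicase onto origins of replication, and MYCL1 is a transcription factor of the MYC family. In the mitochondrial pathway of apoptosis, BCL2 holds the pore-forming proteins BAX and BAK1 in check, and BH3-only proteins such as PUMA, the product of BBC3, bind and neutralise BCL2 and its relatives. As background, K562 is known to have lost the chromosomal region of CDKN2A and CDKN2B.

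The promoter sequences of the pair of proliferation genes that stood higher in HepG2, and of the pair of apoptosis genes that went opposite ways there, are shown so that the genes can be compared in their start regions. Each is the 250 bases before the RefSeq start site on GRCh38.p14, 5′ to 3′ on the gene's strand; capitals mark matches, on either strand, to any of the E2F motif TTTNNCGC, the GC box GGGCGG, the E-box CACGTG and the AP-1 motif TGANTCA.
CDT1 (chr16:88803539-88803788, plus strand): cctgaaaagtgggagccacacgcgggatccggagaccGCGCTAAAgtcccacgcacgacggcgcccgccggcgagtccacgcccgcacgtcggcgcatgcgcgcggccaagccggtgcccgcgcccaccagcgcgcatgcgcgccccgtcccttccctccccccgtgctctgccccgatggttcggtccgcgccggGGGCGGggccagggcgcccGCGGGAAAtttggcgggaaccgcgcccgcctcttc
CDKN2B (chr9:22009306-22009555, minus strand): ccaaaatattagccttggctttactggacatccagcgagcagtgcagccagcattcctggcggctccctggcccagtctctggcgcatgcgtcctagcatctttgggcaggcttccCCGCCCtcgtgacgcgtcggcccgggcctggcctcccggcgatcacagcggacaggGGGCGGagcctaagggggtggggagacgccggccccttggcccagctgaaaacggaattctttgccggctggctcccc
BBC3 (chr19:47232668-47232917, minus strand): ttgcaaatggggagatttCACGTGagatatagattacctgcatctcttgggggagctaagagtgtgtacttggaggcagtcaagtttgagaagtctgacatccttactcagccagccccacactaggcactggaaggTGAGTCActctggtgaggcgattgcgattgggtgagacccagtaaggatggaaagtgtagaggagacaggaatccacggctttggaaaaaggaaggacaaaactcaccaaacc
BCL2 (chr18:63319770-63320019, minus strand): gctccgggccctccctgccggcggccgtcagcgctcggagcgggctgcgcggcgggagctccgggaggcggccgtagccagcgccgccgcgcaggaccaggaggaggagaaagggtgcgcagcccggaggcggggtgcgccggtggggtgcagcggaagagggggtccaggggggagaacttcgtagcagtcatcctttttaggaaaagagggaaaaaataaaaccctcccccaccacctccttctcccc

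The CDT1 window held 2 E2F matches, 213 and 35 bases before the start, and 1 GC box 54 bases before it. An E2F match occurred in 5.92% of the 35116 windows of the same length in the RefSeq table. The CDKN2B window held 2 GC boxes, 134 and 78 bases before the start, and none of the other motifs; a GC box occurred in 42.6% of all windows. The BBC3 window was the only one of the 4 printed with an E-box, at 232 bases before the start, or an AP-1 match, at 113 bases, against 6.34% and 6.57% of all windows. The BCL2 window held no match to any of the 4 motifs. GC content was 76.4% for CDT1, 66.4% for CDKN2B and 70% for BCL2 but 49.2% for BBC3, against a median of 58% over all windows. Among the genes not printed, the MYCL1 window (RefSeq symbol MYCL) had 2 GC boxes, the 3 CCND3 start sites had 5, 2 and 0, and neither gene had an E2F, E-box or AP-1 match; RefSeq sequences were matched for 6 of the 7 genes, not CCND1. The motifs were picked with the windows in view, they do not overlap one another in the printed windows, and a match describes letters and not a bound site. HepG2 and K562 cells may use other start sites.

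In HepG2 the listed proliferation genes went both ways. CDKN2B and CDT1 were higher in the knockdown and CCND3 was lower, so 2 of 3 were higher where 55.0% of all listed genes were higher and 45.0% lower. CCND3 (ENSG00000112576), which encodes cyclin D3, had an authors' average of 1089 in the control and 435 in the knockdown. The knockdown value was 39.9% of the control, a 2.50-fold difference that ranked 350 of the 634 lower genes. Whether the averages are scaled for gene length is not stated. A low or high average below is thus a position among the averages of its table and not a level of expression.

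CDKN2B (ENSG00000147883), which encodes the kinase inhibitor p15, averaged 53.5 in the HepG2 control and 139 in the knockdown. It was 2.57-fold higher and ranked 377 of the 775 higher genes. CDT1 (ENSG00000167513), the licensing factor that is normally destroyed once replication begins, averaged 185 in the control and 422 in the knockdown. It was 2.28-fold higher, rank 527 of 775, the fold nearest the 2-fold limit among the 7 genes. Thus a gene that restrains cyclin D kinases and one that prepares origins were both listed as higher, and a cyclin D gene as lower. The folds of CDKN2B and CCND3 were of middling size in their table and that of CDT1 was smaller. The median log2 fold of the higher HepG2 genes was 1.35 and that of the lower ones -1.37, beside 1.36 for CDKN2B, 1.19 for CDT1 and -1.32 for CCND3.

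Both apoptosis regulators were listed in HepG2, 1 higher and 1 lower, and with the pseudocount of 1 both had larger folds than the 3 proliferation genes. BBC3 (ENSG00000105327) averaged 10.5 in the control and 38.5 in the knockdown, 3.43-fold higher. BCL2 (ENSG00000171791) averaged 84 in the control and 23.5 in the knockdown, 3.47-fold lower, which left 28.0% of the control value. The log2 folds, 1.78 and -1.79, were of nearly the same size in opposite directions, the gene for a BCL2 antagonist up and the gene for BCL2 itself down. BBC3 ranked 171 of 775 higher genes and BCL2 ranked 164 of 634 lower ones. At a 3-fold limit, which 17.0% of the listed genes passed as higher and 16.4% as lower, BBC3 and BCL2 were still past it and none of the 3 proliferation genes was. The BBC3 averages were low: the larger was 2.75 times the smallest value that the larger average took in the table, which was 14. With a pseudocount of 10 BBC3 was 2.37-fold higher, below the 2.47-fold of CCND3 and beside the 2.35-fold of CDKN2B, whereas BCL2 was 2.81-fold lower.

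**Figure D1:**
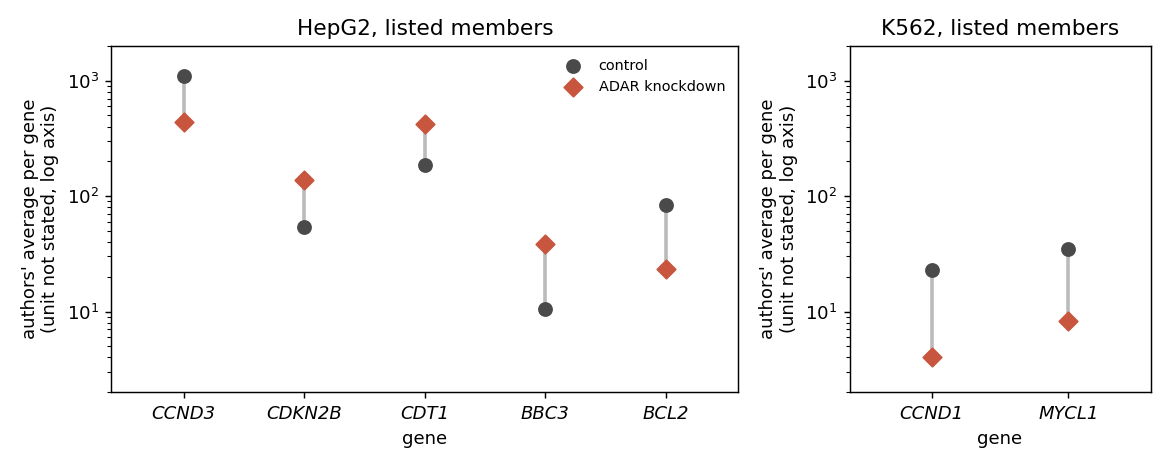
Authors' average per gene (y axis, logarithmic, unit not stated) in the control (grey circles) and the ADAR knockdown (red diamonds) for the listed genes of each cell line, 1 sample per group and no error. CDKN2B, CDT1 and BBC3 stand higher in the HepG2 knockdown, CCND3 and BCL2 lower, and both K562 genes stand lower.

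In K562 both listed proliferation genes were lower in the knockdown, 2 of 2 where 61.8% of all listed genes were lower and 38.2% higher, and neither apoptosis regulator was listed. CCND1 (ENSG00000110092), which encodes cyclin D1, averaged 23 in the control and 4 in the knockdown. It was 4.80-fold lower, kept 17.4% of the control value and ranked 25 of the 582 lower genes. With a pseudocount of 1 this was the largest fold of the 7 genes and the only one past 4-fold, a limit that 5.52% of the K562 genes passed as lower and that 8.94% of the HepG2 genes passed as higher and 8.16% as lower. MYCL1 (ENSG00000116990; MYCL in newer annotation) averaged 34.5 in the control and 8.25 in the knockdown, 3.84-fold lower, rank 62 of 582. Both genes were past 3-fold, as were 14.2% of the K562 genes on the lower side. A gene on the opposite strand that overlaps MYCL1, ENSG00000236546, was listed beside it and was lower as well, at 21 against 49. The use of strand in counting is not given in the sources used here, so reads of this pair cannot be told apart.

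CCND1 also had low averages, as did many listed K562 genes. The larger MYCL1 average lay just above the median of 32 for listed K562 genes. The larger average was above that of 32.2% of the listed K562 genes for CCND1 and of 53.7% for MYCL1. The larger average was 1.67 times the smallest in the K562 table for CCND1 and 2.50 times for MYCL1, where that smallest value was 13.8. With 10 added to each average in place of 1, the CCND1 log2 fold shrank from -2.26 to -1.24 and the MYCL1 log2 fold from -1.94 to -1.29, so the sizes of these folds rest on small values. At that pseudocount CCND1 was 2.36-fold lower, no longer the largest of the 7 folds, and BCL2 at 2.81-fold was. At a pseudocount of 0.1 MYCL1 was also past 4-fold, at 4.14-fold lower. For CCND3 in HepG2, with averages far above the smallest in its table, the same step moved the log2 fold only from -1.32 to -1.31.

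**Figure D2:**
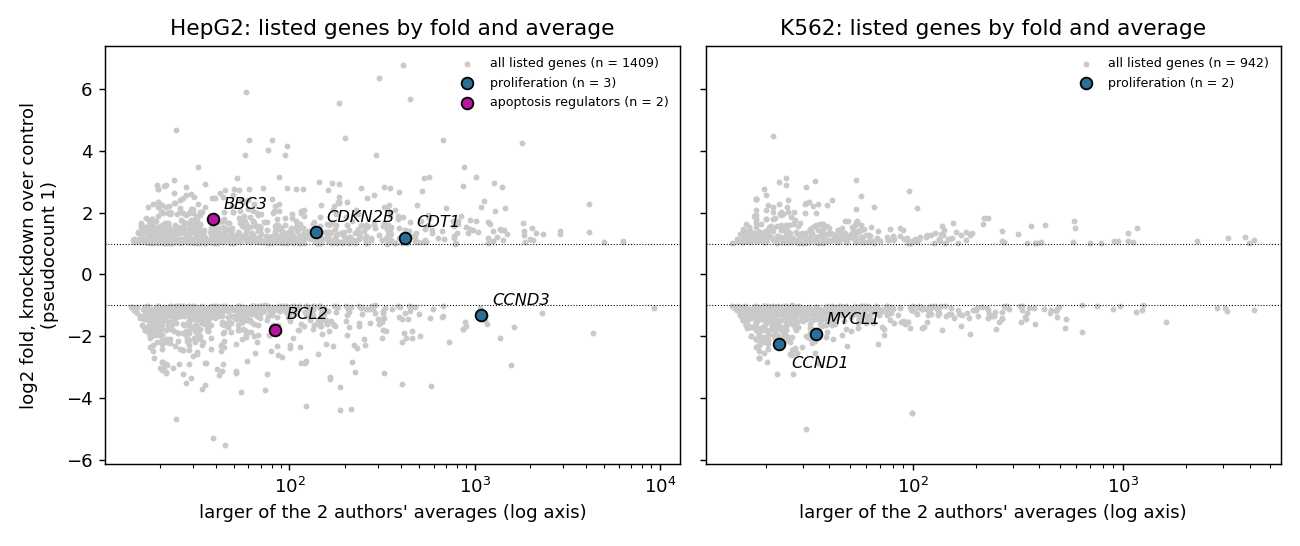
Log2 fold of knockdown over control (y axis) against the larger of the 2 authors' averages (x axis, logarithmic) for all listed genes (grey) with the 7 genes marked, proliferation in blue and apoptosis regulators in magenta; dotted lines mark 2-fold. CDKN2B and CDT1 lie just above the upper line and CCND3 just below the lower one, whereas BBC3, BCL2, MYCL1 and CCND1 lie farther from the lines.

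A common scaling of one library against the other would move all genes of a table together, and the scaling that the authors used is not given in the sources used here. Such a scaling takes the genes with folds below about 3 inside the 2-fold limit, and here these were the HepG2 proliferation genes. With the knockdown averages divided by 1.5, CDKN2B was 1.72-fold and CDT1 1.52-fold higher. With the knockdown averages multiplied by 1.5, CCND3 was 1.67-fold lower. BBC3 stayed past 2-fold at 2.32-fold higher after division and BCL2 at 2.34-fold lower after multiplication. CCND1 was 3.43-fold and MYCL1 2.65-fold lower after multiplication. A factor of 1.5 cannot turn the direction of a gene listed at 2-fold or more, so the directions are no sign of stability. Of the listed HepG2 genes still past 2-fold, 28.2% were higher after division and 76.3% after multiplication, against 55.0% as deposited; in K562 these shares were 12.3% and 71.3%, against 38.2%. Genes that such a scaling would bring past 2-fold are not in the tables.

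**Figure D3:**
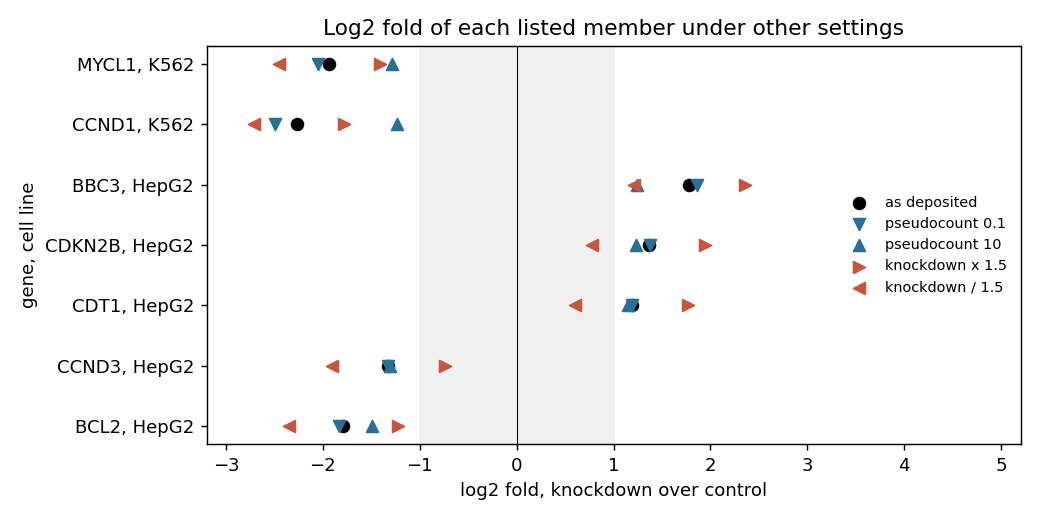
Log2 fold of each of the 7 genes (x axis) as deposited (black), with a pseudocount of 0.1 or 10 (blue) and with the knockdown averages multiplied or divided by 1.5 (red); the grey band marks less than 2-fold. CDKN2B, CDT1 and CCND3, whose deposited folds are the smallest of the 7, enter the band, each under 1 scaling.

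The same pathways held further listed genes, counted over 13 lists of 162 distinct genes, of which BIRC5 was on both a proliferation and an apoptosis list. Among the 16 cyclin genes, 3 were listed in HepG2 and all 3 were lower, where 45.0% of all listed genes were lower and 55.0% higher. Besides CCND3, CCNC, the cyclin of the Mediator kinase module, averaged 13.3 against 33.5. CCNE2, a cyclin E gene of the G1 to S transition, averaged 11.9 against 25.1. CCNC was 2.42-fold and CCNE2 2.03-fold lower, both at low averages. With a pseudocount of 10, 1 of the 3 cyclins stayed past 2-fold, and 0 did with the knockdown averages multiplied by 1.5. Among the 8 inhibitors of cyclin-dependent kinases, 2 were listed in HepG2 and both were higher. Besides CDKN2B this was CDKN1A, which encodes p21, at 191 against 91.8, 2.06-fold higher. With a pseudocount of 10, 1 of the 2 inhibitors stayed past 2-fold, and 0 did with the knockdown averages divided by 1.5. At a 3-fold limit both lists held 0 genes in HepG2. The HepG2 cyclins had a median log2 fold of -1.28 and the inhibitors one of 1.20, beside 1.05 over all listed HepG2 genes; the medians of all lower and all higher HepG2 genes were -1.37 and 1.35, both larger in size than those of the 2 lists. In K562 the 1 listed cyclin gene was CCND1, and the 1 listed inhibitor was CDKN1C, which encodes p57, at 7 against 21.8, 2.85-fold lower. These CDKN1C averages were low as well. CDKN1C fell inside 2-fold with a pseudocount of 10 and with the knockdown averages multiplied by 1.5.

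Around CDT1, the 25 genes of replication licensing and initiation had 2 listed in HepG2: CDT1 itself and GINS4, a subunit of the replicative helicase complex, which went the other way at 89.5 against 210, 2.33-fold lower. Geminin, the inhibitor of CDT1, and the MCM helicase genes were unlisted in both lines. Of the 13 genes of the MYC family and its partners, MYC was listed in HepG2, at 2157 against 848 and 2.54-fold higher. In K562, 3 were listed and all were lower, where 61.8% of all listed genes were lower. Besides MYCL1 these were MLXIPL, a glucose-responsive transcription factor, at 4 against 26.5, and MXI1 at 105 against 247. MXI1 antagonises MYC by binding its partner MAX. The median log2 fold of the 3 was -1.94, beside -1.09 over all listed K562 genes and -1.28 over the lower ones. At a 4-fold limit 1 of the 3 remained. No kinase or phosphatase of the 10 fixed for the cyclin-dependent kinases, none of the 13 RB and E2F genes and none of the 16 mitosis and proliferation markers, MKI67 and TOP2A among them, was listed in either table.

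The BCL2 family had 6 of 23 genes listed in HepG2, 5 higher and 1 lower where 55.0% of all listed genes were higher and 45.0% lower, and 0 of 23 in K562. All 3 listed BH3-only genes, of 10, were higher. PMAIP1, which encodes NOXA, averaged 445 against 138 and was 3.22-fold higher, and BIK averaged 22.4 against 7.2 and was 2.85-fold higher, beside 3.43-fold for BBC3. The larger BIK average lay below the lower quartile of 26 for listed HepG2 genes. With a pseudocount of 10, 2 of the 3 BH3-only genes stayed past 2-fold. The 2 listed antiapoptotic genes, of 6, went opposite ways. MCL1, a short-lived relative of BCL2 that NOXA binds, averaged 2064 against 951 and was 2.17-fold higher where BCL2 was 3.47-fold lower. BOK, a relative of BAX, was 2.10-fold higher at 39.8 against 18.4. The median log2 fold of the 6 was 1.32. With the knockdown averages divided by 1.5, 2 of the 3 BH3-only genes stayed past 2-fold, and MCL1 and BOK did not. BOK also fell inside 2-fold with a pseudocount of 10. BCL2 stayed past 2-fold under both settings.

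Of 20 genes of growth arrest and the DNA damage response, 4 were listed in HepG2 and 0 in K562. In HepG2 2 were higher and 2 lower, where 55.0% of all listed genes were higher and 45.0% lower. SESN2, a stress-induced inhibitor of mTORC1 signalling, averaged 243 against 33.8, and GADD45A, a growth arrest gene, averaged 243 against 79.7. The others went the opposite way: SESN1, a relative of SESN2, averaged 8 against 20.5, and ZMAT3, an RNA-binding zinc-finger gene, averaged 51.8 against 159.

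Further along the death pathways, the 1 listed gene of 12 death receptors and ligands in HepG2 was TNFRSF10D, a decoy receptor for TRAIL, 3.15-fold lower at 37.5 against 120. Of 7 inhibitors of apoptosis, BIRC3 and BIRC2 were listed and higher, at 7.18-fold and 2.17-fold. Of all listed HepG2 genes, 55.0% were higher and 45.0% lower. With the knockdown averages divided by 1.5, BIRC2 fell inside 2-fold and 1 of the inhibitors stayed past it. None of these receptors, ligands and inhibitors was listed in K562. Genes that promote apoptosis and genes that restrain it thus both stood among the higher HepG2 genes.

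Set side by side, the 7 proliferation lists had 8 of 101 genes listed in HepG2, 4 higher and 4 lower. The 6 apoptosis lists, among which growth arrest and the DNA damage response was counted, had 13 of 62, 9 higher and 4 lower. Of the listed genes, 50% and 69.2% were higher, beside 55.0% of all listed HepG2 genes, and the median log2 folds were 0.01 and 1.12. The first of these medians is the midpoint between 4 genes above 1 and 4 below -1, where no gene can be listed, and it ran from -1.80 to 1.85 over the alternatives, so the medians are not set against each other. At 3-fold or more, 0 of the proliferation genes and 8 of the apoptosis genes remained, 5 higher and 3 lower, where 17.0% of all listed HepG2 genes passed this limit as higher and 16.4% as lower. The growth arrest list gave 4 of the 13 listed genes, 2 higher and 2 lower, and at 3-fold 2 higher and 1 lower of the 8. The apoptosis counts thus include genes of that list, whose placement with apoptosis was a choice. In K562 the proliferation lists had 5 genes listed, all lower with a median of -1.94 where 61.8% of all listed genes were lower, and the apoptosis lists 0; the lists do not cover every apoptosis gene, and caspase genes are not among them. Without the 7 genes themselves, the HepG2 counts were 5 of 96 proliferation genes, 2 higher, and 11 of 60 apoptosis genes, 8 higher. The difference between the lists was not tested, since genes that were measured but not listed are unknown.

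**Figure D4:**
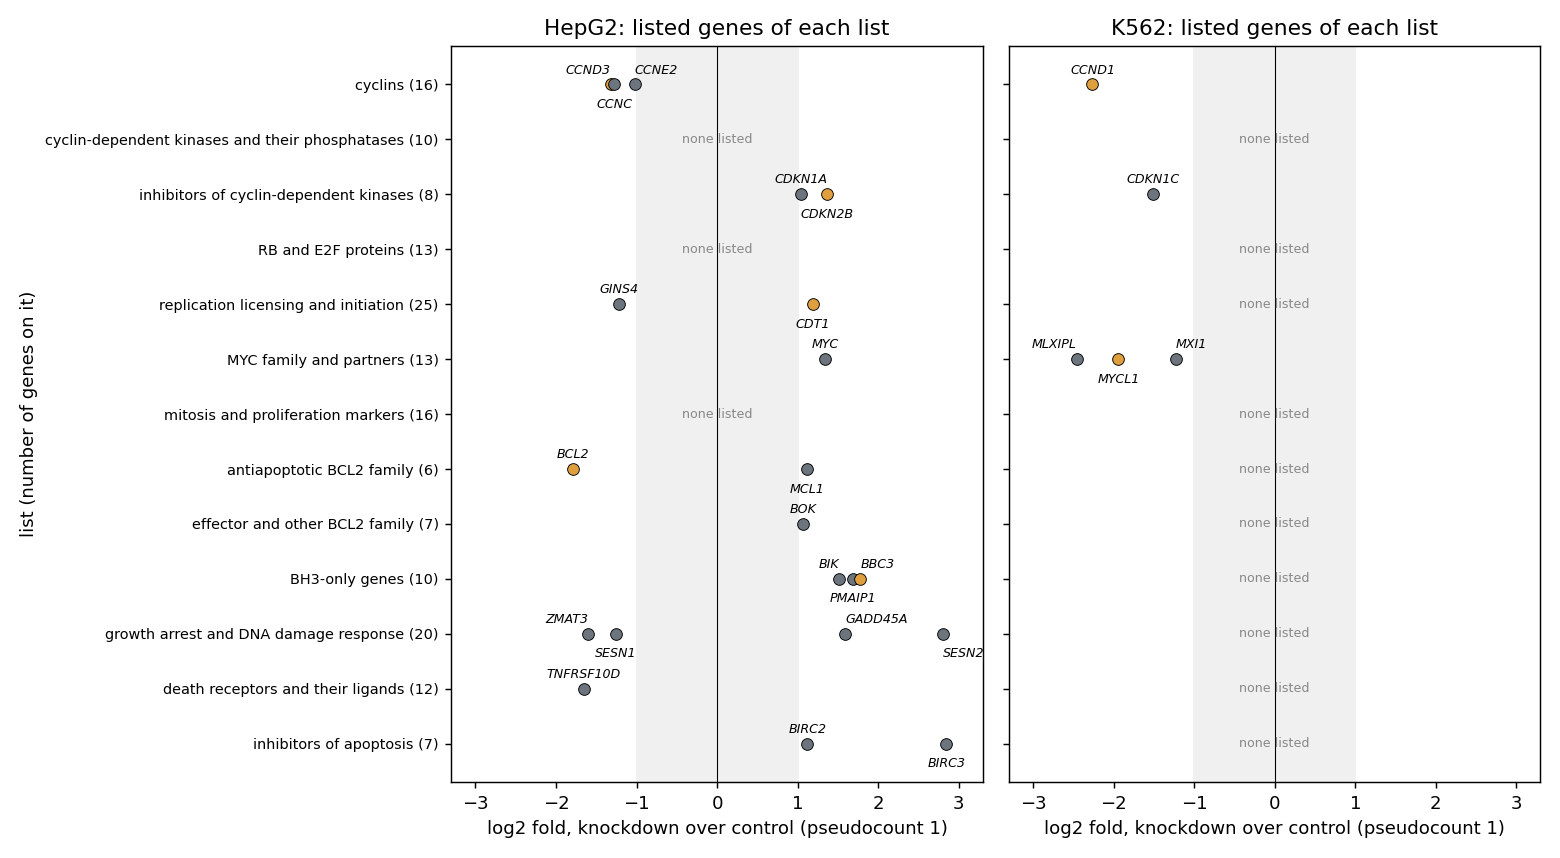
Log2 fold of knockdown over control (x axis) of every listed gene in each of the 13 lists (y axis, with the number of genes on the list) in HepG2 and K562; orange points are the 7 genes, grey points the others, and the grey band marks less than 2-fold, where no gene can be listed. In HepG2 listed cyclins lie to the left and listed kinase inhibitors and BH3-only genes to the right. In K562 every listed gene of these 13 lists lies to the left.

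In GENCODE release 29 the 7 genes were protein-coding and lay on 7 different chromosomes (1, 6, 9, 11, 16, 18 and 19), so no 2 of them are neighbours. All but CDT1 overlapped another annotated gene on the opposite strand. CDKN2B lies within the antisense gene CDKN2B-AS1, which was unlisted in HepG2. BBC3 overlaps the microRNA genes MIR3190 and MIR3191, which were unlisted as well. Of all genes that overlap one of the 7, only the antisense gene at MYCL1 was listed in the same table.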

How the data were processed

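RNA from HepG2 and K562 cells with an ADAR knockdown or a scrambled control, 1 sample per group with 2 technical replicates, was sequenced, per the labels. The submitters' processing notes name TopHat, SAMtools and hg19 with no version; how reads were counted, on which annotation, with or without strand, and how depth was scaled is not given in the sources used here. Per the file headers, the authors' deposited tables hold an average per gene (treated as a signal), a log2 fold and a signed fold (treated as a score), for genes past 2-fold. The deposited log2 fold equalled that of the averages after adding 1. In 1396 of 1413 HepG2 rows and 942 of 945 K562 rows, both averages came to whole numbers at a multiplier of up to 40 that differed between genes (2 for BBC3, 14 for CDT1; tolerance 1e-06), and no source says over what they were averaged. Depth is unknown.

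Groups came from the labels. Folds were recomputed with a pseudocount of 1, which understates the change of low genes; of rows sharing a symbol, the one with the highest mean average was used. Values were described and not tested. The counting of calls was run on simulated averages without noise, which checks the code and not the calls made on low averages. The genes, lists and alternatives were chosen with earlier results of these data known. Named genes were the 7 genes, ADAR and up to 4 listed genes per list; overlapping, antisense and marker genes were named after their values were seen. Genes nearest in pattern were to be named only for a gene in both tables, and none was. Some genes of these pathways are not reported here. Names, overlaps and gene types came from GENCODE release 29 (GRCh38) by Ensembl identifier, which matched 1278 of 1413 HepG2 rows and 840 of 945 K562 rows; promoters came from RefSeq (GRCh38.p14). Alternatives were pseudocounts of 0.1 and 10, limits of 3-fold and 4-fold, floors on the larger average at the lower quartile or median, knockdown averages multiplied or divided by 1.5, and every row as deposited. Python 3.11.15, numpy 2.4.6, pandas 2.3.3 and matplotlib 3.10.9 were used.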

Additional observations from a re-analysis of the deposited data

How the results depend on the processing

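No paired analysis was possible because each group had 1 sample and no result comes from a test. No replicate could be left out for the same reason. The alternatives cannot turn the direction of a gene selected at 2-fold or more, so direction was not put to a test. BBC3 and CCND1 fell under a floor at the median larger average. The log2 fold of the 7 ranged from -2.71 (CCND1, knockdown divided by 1.5) to 2.35 (BBC3, knockdown multiplied by 1.5).

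In HepG2, a 3-fold limit left 0 higher and 0 lower of the proliferation genes, and the same of the proliferation lists, and 5 higher genes of the apoptosis lists (median log2 fold 1.64). A 4-fold limit left 0 of either kind among the 7 genes and the proliferation lists, and 2 higher and 0 lower of the apoptosis lists (median log2 fold 2.83). A floor at the median left 0 higher apoptosis regulators and 2 lower genes of the proliferation lists, as did a pseudocount of 10 for the latter. Knockdown averages multiplied by 1.5 left 0 lower proliferation genes, of the 7 and in the lists, and divided by 1.5 left 0 higher ones and 5 higher genes of the apoptosis lists. The median log2 fold of the HepG2 proliferation lists, with 4 genes on each side of 0, is set by whichever side loses genes. It was 0.01 as deposited, -0.011 with a pseudocount of 0.1, 1.15 with 10, 1.05 and 1.12 with floors at the lower quartile and the median, 1.85 with the knockdown multiplied by 1.5 and -1.80 with it divided. That of the apoptosis lists was 1.89 with it multiplied.

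In K562, 1 of the 2 proliferation genes remained at 4-fold or at the median floor. Of the 5 lower genes of the proliferation lists, 3 remained at 3-fold or with the knockdown multiplied by 1.5, and 2 at 4-fold or at the median floor. The proliferation median was -1.26 with a pseudocount of 10 and -2.45 with the knockdown divided by 1.5. Depth, which would set the precision of the low averages, is unknown.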
